A study of Mus musculus with 8 samples.

Results

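Transcription factors that set or maintain the identity of lung epithelium were followed across the airway epithelial cells of house dust mite-treated and control mice, with and without a conditional knockout of STAT3. The 10 genes were Nkx2-1, Foxa1, Foxa2, Gata6, Cebpa, Sox2, Klf5, Elf3, Ehf and Grhl2, taken by name from a table of 25124 genes with 1 normalized read count per gene and library. All 10 had reads in every library and passed the minimum of 10 normalized counts on average that was set for testing, as did 7512 genes in all. The mice were of the C57BL/6 strain, and 8 libraries fell into 4 groups of 2: STAT3-cKO (cKO) given house dust mite (HDM), STAT3-WT (WT) given HDM, cKO given phosphate-buffered saline (PBS) and WT given PBS. HDM is an allergen source that causes allergic airway inflammation in mice. The cells had been sorted from lung by flow cytometry, and directional libraries were built from their total RNA. The sources used here do not give the cell type in which Stat3 was deleted, the HDM schedule, or the age and sex of the animals. The labels do not state whether the replicates of a group are separate animals, and a p-value here reflects only the spread of the libraries, possibly a technical one.

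Lung epithelium is specified in the foregut endoderm by the homeodomain factor NKX2-1, which later binds the promoters of surfactant and secretoglobin genes together with the forkhead factors FOXA1 and FOXA2, the zinc-finger factor GATA6 and the leucine-zipper factor CEBPA. SOX2 marks the conducting airways, as opposed to the alveoli. KLF5, the ETS-family factors ELF3 and EHF, and the grainyhead factor GRHL2 act in many epithelia, where they take part in differentiation and in the expression of junction genes such as Cdh1.

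The libraries were shallow, with 232556 to 593200 reads, and the fewest reads fell in both cKO PBS libraries. A count of 3 reads, the most that a count of 0 allows, corresponded to 1.96 to 4.88 normalized counts. The epithelial adhesion gene Epcam lay between 99.7 and 179 normalized counts in all libraries. The 6 basal cell markers summed to 2.90 to 50.9 normalized counts, and 1 of them, the keratin Krt14, had 0 reads in all libraries. Stat3 had 76.9 and 92.2 normalized counts in cKO HDM, against 134 and 157 in WT HDM, and it had 56.9 and 96.5 in cKO PBS, against 75.8 and 40.9 in WT PBS. It passed the test in neither genotype comparison (limma adjusted p = 0.549 under HDM and 0.845 under PBS), and a value per gene cannot show a deleted exon. The WT HDM libraries stood apart in genes of other cells. The 12 endothelial markers summed to 1102 to 1120 normalized counts there and to 215 to 343 in the other 6 libraries, and the 10 fibroblast and smooth muscle markers summed to 1213 to 1262 there and to 34.2 to 109 elsewhere. The 12 alveolar type 2 markers summed to 12565 to 18499 in WT HDM and to 4980 to 7208 elsewhere, whereas the 12 ciliated cell markers summed to 3740 to 4702 in WT HDM and to 5833 to 7479 elsewhere. The leukocyte markers other than Lyz2, which is also an alveolar type 2 marker, summed to 44.3 to 210.1 in WT HDM and to 0 to 14.5 elsewhere, over 11 genes. The 10 club cell markers summed to 11591 to 16356 in cKO PBS and to 6551 to 10083 elsewhere. The 7 mucous cell markers summed to 1626 to 5106 in the HDM libraries and to 426 to 1304 in the PBS libraries. Every comparison thus carries differences in cell type markers, and their part in the values of the 10 factors was not tested.

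Per length of exon the factors spanned a broad range, from Cebpa at the top to Klf5 at the bottom. Levels were set side by side as normalized counts per kb of the exons of coding transcripts, as the mean ± SD over all 8 libraries. Cebpa averaged 76.1 ± 26.7 per kb, which put it in the top 2.57% of 7392 tested genes with an annotated length. Sox2 came next at 51.1 ± 12.3 per kb, ahead of Nkx2-1 at 38.4 ± 7.52 and Foxa1 at 33.0 ± 6.61. Elf3 and Foxa2 were at almost the same level, 26.0 ± 9.64 and 25.8 ± 10.1 per kb. Gata6 at 14.0 ± 3.94, Ehf at 13.9 ± 4.71 and Grhl2 at 13.6 ± 9.06 per kb formed a lower group. Klf5 was last at 8.30 ± 4.45 per kb, within the top 47.8% of genes. For 7 of the 9 neighbouring pairs in this order the gap was smaller than the larger SD of the pair. The exceptions were the step between Sox2 and Nkx2-1 and the step between Foxa2 and Gata6. The higher factor exceeded the lower one in 7 of 8 libraries for both of these steps and also for Foxa1 over Elf3, and in 3 of 8 for Elf3 over Foxa2. Cebpa had the highest level per kb of the 10 factors in 6 of 8 libraries, was second to Sox2 in cKO HDM replicate 1 and ranked 5 in cKO PBS replicate 1.

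**Figure D1:**
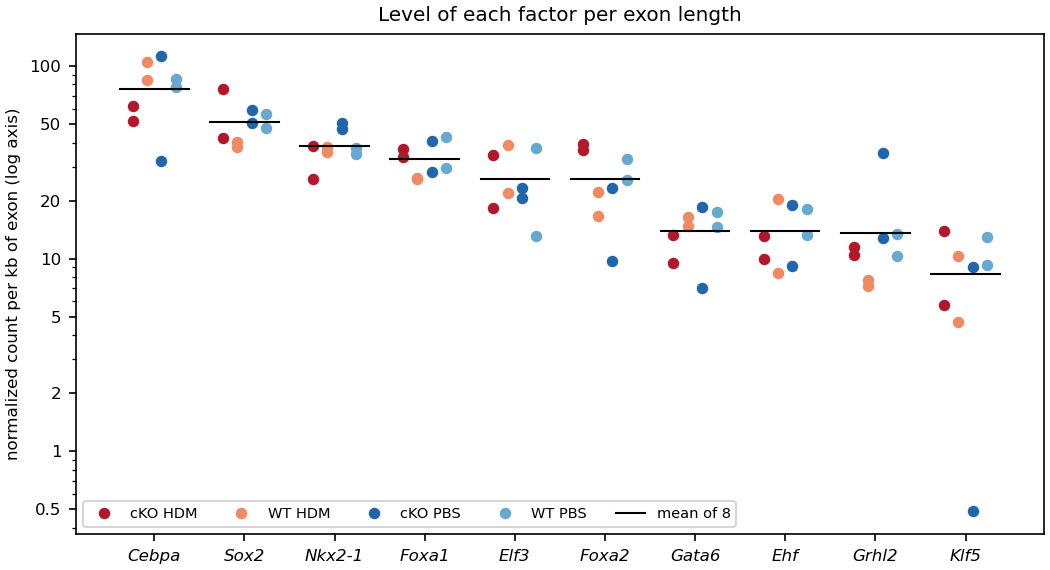
Level of each factor in normalized counts per kb of exon (log axis), with 1 point per library coloured by group and a line at the mean of the 8 libraries. Cebpa has the highest mean, 76.1 per kb, and Klf5 the lowest, 8.30 per kb, with its lowest point, 0.488 per kb, in a cKO PBS library.

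Among the factors of endodermal and alveolar programmes, Nkx2-1 was the steadiest over the 8 libraries, with a coefficient of variation of 19.6%. Nkx2-1 (chr12:56531958-56536908, minus strand, in the mm10 coordinates of GENCODE) had 73.3 and 109.6 normalized counts in cKO HDM, 108 and 102 in WT HDM, 143 and 133 in cKO PBS, and 98.7 and 106 in WT PBS. Both cKO PBS libraries lay above all 6 others, and the lowest value was 1 of the cKO HDM libraries, while the HDM groups overlapped. The 79 to 165 reads behind each value gave 95% Poisson intervals such as 59.7 to 89.1 normalized counts for the lowest library. Such intervals hold counting error alone, and sequenced reads need not be independent molecules.

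Foxa1 and Foxa2 encode forkhead factors that can bind and open closed chromatin and that overlap in function during lung development. Foxa1 (chr12:57540628-57546916, minus strand) had 118 and 107 normalized counts in cKO HDM, 83.5 and 82.5 in WT HDM, 130.1 and 90.2 in cKO PBS, and 137 and 94.6 in WT PBS. Both WT HDM libraries lay below the 6 others and within 1.01-fold of each other, and the PBS groups overlapped across almost their whole range. Foxa2, whose loss in mouse airway epithelium leads to goblet cell metaplasia, lies at chr2:148042877-148046969 on the minus strand. It had 79.8 and 85.5 normalized counts in cKO HDM, 48.3 and 36.1 in WT HDM, 21.1 and 50.8 in cKO PBS, and 72.0 and 55.5 in WT PBS. Both cKO HDM libraries lay above the 6 others, and no pair of compared groups overlapped. The lowest value rested on 13 reads, with a 95% interval of 11.3 to 36.2 normalized counts, and the other cKO PBS library was 2.40-fold higher.

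The sequences just before an annotated internal start of Foxa2 and of Foxa1 are shown because, of the windows searched, only they held a match. The motifs searched were those of STAT, forkhead, GATA and NKX2-1 factors. RefSeq windows of 250 bases before an annotated start were available for 8 starts of 6 members (Nkx2-1, Foxa1, Foxa2, Sox2, Cebpa and Elf3), in build GRCm38.p6. Both strands were searched. The STAT letters TTCNNNGAA occurred in 0 of these 8 windows, and 7.02% of the 32851 windows of all genes hold them. The first window below belongs to a Foxa2 start at base 148045464 and spans chr2:148045465-148045714 on the minus strand, in an intron of the coding transcripts. It was printed for its matches, and the windows of the other 2 Foxa2 starts held 0, as did those of Nkx2-1, Sox2, Cebpa and Elf3. Its capitals mark an NKX2-1 motif (CTCAAG, found on the opposite strand, between positions -187 and -182 from the start) and a GATA motif (AGATAA, between positions -183 and -178), which overlap. In all windows the shares are 13.3% for CTCAAG and 9.99% for AGATAA. The second window belongs to the Foxa1 start at base 57546111 and spans chr12:57546112-57546361 on the minus strand, inside the gene span given above. Its capitals mark a forkhead motif (TGTTTNC, on the opposite strand, between positions -141 and -135), which 17.8% of all windows hold. These are matches of letters, and no binding was measured.
Foxa2: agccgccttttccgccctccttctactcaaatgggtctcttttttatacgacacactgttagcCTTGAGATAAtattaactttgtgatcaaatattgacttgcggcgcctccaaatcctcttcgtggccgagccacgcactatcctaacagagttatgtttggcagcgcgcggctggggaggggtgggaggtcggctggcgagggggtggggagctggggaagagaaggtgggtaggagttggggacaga
Foxa1: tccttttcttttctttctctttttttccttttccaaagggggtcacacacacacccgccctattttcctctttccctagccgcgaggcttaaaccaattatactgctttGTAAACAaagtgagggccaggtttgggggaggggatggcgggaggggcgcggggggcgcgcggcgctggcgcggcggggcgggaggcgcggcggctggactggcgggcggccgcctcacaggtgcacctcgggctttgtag

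Gata6, a regulator of lung endoderm that also activates surfactant genes, was among the low members. Gata6 (chr18:11052064-11085635, plus strand) had 42.8 and 30.7 normalized counts in cKO HDM, 47.6 and 52.9 in WT HDM, 60.2 and 22.9 in cKO PBS, and 56.6 and 47.3 in WT PBS. The cKO HDM libraries lay below the WT HDM libraries, and the cKO PBS group held both the highest and the lowest value of all 8. Cebpa, required for maturation of alveolar and airway epithelium in the mouse, lies at chr7:35119293-35121928 on the plus strand. It had 163 and 136 normalized counts in cKO HDM, 276 and 222 in WT HDM, 84.6 and 295 in cKO PBS, and 204 and 226 in WT PBS. Both cKO HDM libraries lay below both WT HDM libraries and below both WT PBS libraries, while the cKO PBS libraries again differed most, by 3.48-fold, on 52 and 232 reads.

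Sox2, the factor of conducting airways, was highest as a group mean in cKO HDM, where a single library set that mean. Sox2 (chr3:34650405-34652461, plus strand) had 155 and 87.2 normalized counts in cKO HDM, 77.6 and 82.5 in WT HDM, 104 and 121 in cKO PBS, and 98.0 and 116 in WT PBS. WT HDM was the lowest group, cKO HDM lay above it, and cKO HDM replicate 1 exceeded every other library. The gene lies inside the non-coding gene Sox2ot on the same strand, so reads of the 2 genes could not be told apart if they were counted over the shared bases.

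Of the factors of general epithelial differentiation, Klf5 had the library with the fewest reads. Klf5, a zinc-finger factor needed for perinatal lung maturation in the mouse, lies at chr14:99298691-99315036 on the plus strand. It had 29.8 and 72.3 normalized counts in cKO HDM, 53.5 and 24.5 in WT HDM, 47.2 and 2.54 in cKO PBS, and 48.2 and 67.3 in WT PBS. The value of 2.54 in cKO PBS replicate 2 rested on 2 reads, with a 95% interval of 0.308 to 9.17 normalized counts, and it stood below all other libraries, while the HDM groups overlapped.

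Elf3 and Ehf, 2 ETS-family factors found mainly in epithelia, showed no separation of any compared groups. Elf3 (chr1:135253575-135258568, minus strand) had 71.8 and 38.2 normalized counts in cKO HDM, 45.6 and 81.2 in WT HDM, 48.8 and 43.2 in cKO PBS, and 78.8 and 27.3 in WT PBS. The WT PBS libraries differed by 2.89-fold and spanned nearly the whole range. Ehf (chr2:103263433-103303278, minus strand) had 45.7 and 60.6 normalized counts in cKO HDM, 93.9 and 38.7 in WT HDM, 42.3 and 87.6 in cKO PBS, and 61.2 and 83.7 in WT PBS. Here the WT HDM libraries held both the highest and the lowest value.

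Grhl2, which activates Cdh1 and claudin genes in epithelia, was the most uneven member, with a coefficient of variation of 66.6%. Grhl2 (chr15:37233036-37363569, plus strand) had 61.0 and 55.6 normalized counts in cKO HDM, 41.1 and 38.7 in WT HDM, 189 and 68.6 in cKO PBS, and 55.1 and 71.8 in WT PBS. The value of 189 in cKO PBS replicate 1, from 116 reads, was 2.75-fold above that of the other cKO PBS library, and both WT HDM libraries lay below the 6 others.

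**Figure D2:**
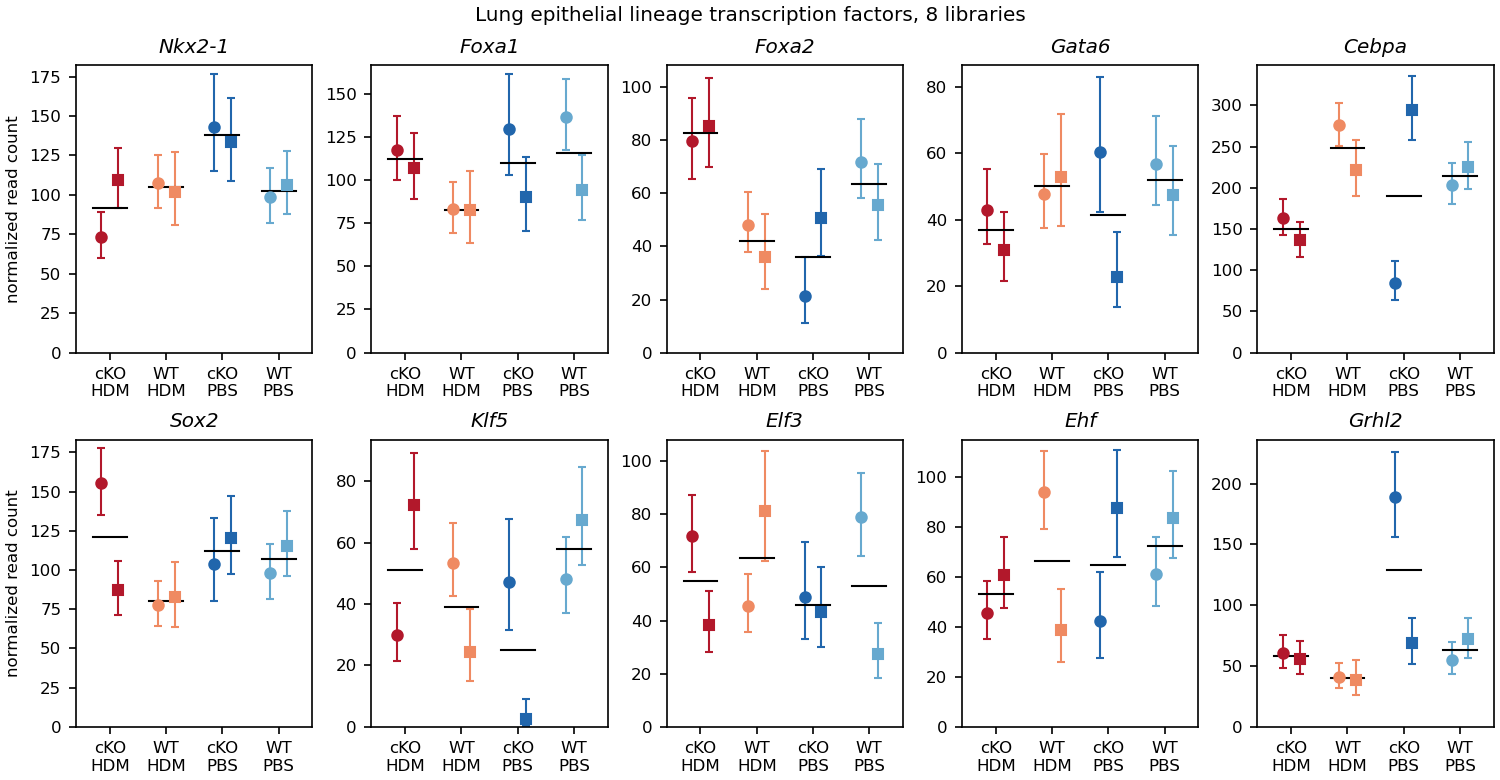
Normalized read count of each factor in every library (circles, replicate 1; squares, replicate 2), with the exact 95% Poisson interval of its reads as a bar and a black line at the group mean. Foxa2 is highest in both cKO HDM libraries, at 79.8 and 85.5, and the cKO PBS libraries differ most from each other for Cebpa, Klf5 and Grhl2.

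The sum of the 10 factors varied little, but opposite moves of single factors can cancel in a sum. For single factors the highest group mean was 1.36 (Ehf) to 3.23 (Grhl2) times the lowest. The 10 normalized counts summed to 840 and 783 in cKO HDM, 875 and 761 in WT HDM, 870.3 and 914 in cKO PBS, and 909 and 895 in WT PBS. The highest sum was 1.20 times the lowest, and both PBS groups overlapped with each other, as did both HDM groups. The HDM sums lay below the PBS sums without overlap in both genotypes, and no test was made of a sum. The single factors were most uneven in cKO PBS. The higher replicate was a median of 2.24 times the lower one over the 10 factors there and exceeded it by more than 1.5-fold for 6 of them. In the other groups that median was 1.36 in cKO HDM, 1.18 in WT HDM and 1.30 in WT PBS. Across all 7512 tested genes, with 1 added to each value, the median ratio between replicates was likewise highest in cKO PBS, at 1.69, against 1.41 in cKO HDM, 1.52 in WT HDM and 1.40 in WT PBS.

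The first comparison asked whether the factors differed between genotypes after HDM. No factor passed the test in cKO against WT under HDM (0 of 10 at an adjusted p under 0.05 with limma), and 0.572% of all tested genes passed. At an unadjusted p under 0.05 the count was also 0 of 10, beside 9.6% of all tested genes. Differences are given as log2 fold changes of normalized count + 1, ± standard error, cKO over WT. The groups did not overlap for 6 factors, Foxa1, Foxa2, Sox2, Gata6, Cebpa and Grhl2, and the same held for 43.1% of all tested genes. On the recovered reads, edgeR and DESeq2 likewise called 0 of 10 factors in each of the 5 comparisons made. Foxa2 averaged 82.7 ± 4.05 normalized counts in cKO HDM and 42.2 ± 8.60 in WT HDM (SD, n = 2 each), a log2 fold change of 0.97 ± 0.46 with a 95% interval of -0.01 to 1.95 and a limma adjusted p of 0.525, the smallest of the 10. Cebpa averaged 149.7 ± 19.1 in cKO HDM and 249 ± 38.3 in WT HDM (SD, n = 2 each), at -0.73 ± 0.42 with a limma adjusted p of 0.622. Sox2 was at 0.54 ± 0.34, Grhl2 at 0.54 ± 0.45, Foxa1 at 0.43 ± 0.33 and Gata6 at -0.46 ± 0.50, and the remaining 4 factors lay between -0.22 and 0.35. The median over the 10 factors was 0.08, with 5 above and 5 below 0, beside a median of 0.02 over all tested genes. In bulk RNA, fewer cells that express a factor and less of its RNA per cell cannot be told apart.

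The second comparison took the response to HDM in each genotype. In WT, 0 of 10 factors passed HDM against PBS, against 0.519% of all tested genes, and 0 of 10 had an unadjusted p under 0.05, beside 8.93% of all tested genes. Groups did not overlap for 4 factors, all lower under HDM, beside 42% of all tested genes. These were Grhl2 at -0.65 ± 0.45, Foxa2 at -0.59 ± 0.46, Foxa1 at -0.45 ± 0.33 and Sox2 at -0.41 ± 0.34, with limma adjusted p-values of 0.772 or more. The highest member was Elf3 at 0.38 ± 0.53, whose sign was negative without WT HDM replicate 2 (-0.03) and without WT PBS replicate 2 (-0.37). The mean of Foxa2 was 42.2 ± 8.60 normalized counts after HDM and 63.7 ± 11.7 after PBS in WT (SD, n = 2 each). The median over the 10 factors was -0.32, with 3 above and 7 below 0, and that over all tested genes was -0.03.

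In cKO, 0 of 10 factors passed HDM against PBS, beside 0.0532% of all tested genes, and groups did not overlap for 3 factors, beside 35.6% of all tested genes. Foxa2 averaged 82.7 ± 4.05 normalized counts in cKO HDM and 36.0 ± 21.0 in cKO PBS (SD, n = 2 each), a log2 fold change of 1.30 ± 0.46 with an unadjusted p of 0.0127 and a limma adjusted p of 0.537. It was the 1 factor of 10 with an unadjusted p under 0.05, where 7.77% of all tested genes had one. Grhl2 was at -0.96 ± 0.45 and Nkx2-1 at -0.62 ± 0.32, both lower under HDM with no overlap. Klf5 was the highest member at 1.86 ± 0.89, and edgeR on the recovered reads gave 1.05. The median over the 10 factors was 0.01, against 0.10 over all tested genes. The values of Klf5, Foxa2 and Grhl2 moved with single cKO PBS libraries. Without cKO PBS replicate 1, Klf5 passed at 3.75 (limma adjusted p = 0.0121), whereas without replicate 2 it was at -0.02. The fit without replicate 1 called 54 of all tested genes. Without cKO PBS replicate 2, Foxa2 passed at 1.92 (limma adjusted p = 0.0302) and Grhl2 at -1.68 (limma adjusted p = 0.0374), and the number of all tested genes that passed was 320 in place of 4. A group left with 1 library is assumed in these fits to vary like the others.

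The third comparison took the genotypes under PBS. No factor passed in cKO against WT under PBS, and 0% of all tested genes passed with limma, edgeR or DESeq2, although 1 of 10 factors, Klf5, and 6.96% of all tested genes had an unadjusted limma p under 0.05. Groups did not overlap for Nkx2-1, Foxa2 and Klf5, beside 34.7% of all tested genes. Klf5 averaged 24.9 ± 31.6 normalized counts in cKO PBS and 57.8 ± 13.5 in WT PBS (SD, n = 2 each), at -2.15 ± 0.89 with an unadjusted p of 0.0290 and a limma adjusted p of 0.694. Foxa2 was at -0.92 ± 0.46 and Nkx2-1 at 0.43 ± 0.32, and Grhl2 was the highest member at 0.85 ± 0.45, with overlapping groups. The median over the 10 factors was -0.15, with 3 above and 7 below 0, against -0.09 over all tested genes. Single cKO PBS libraries set calls here too. Klf5 passed at -4.03 without cKO PBS replicate 1 (limma adjusted p = 0.0133), and it was at -0.27 without replicate 2. Cebpa passed at -1.33 without cKO PBS replicate 2 (limma adjusted p = 0.0311) and was at 0.46 without replicate 1. Of all tested genes, 53 passed without replicate 1 and 315 without replicate 2, in place of 0.

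**Figure D3:**
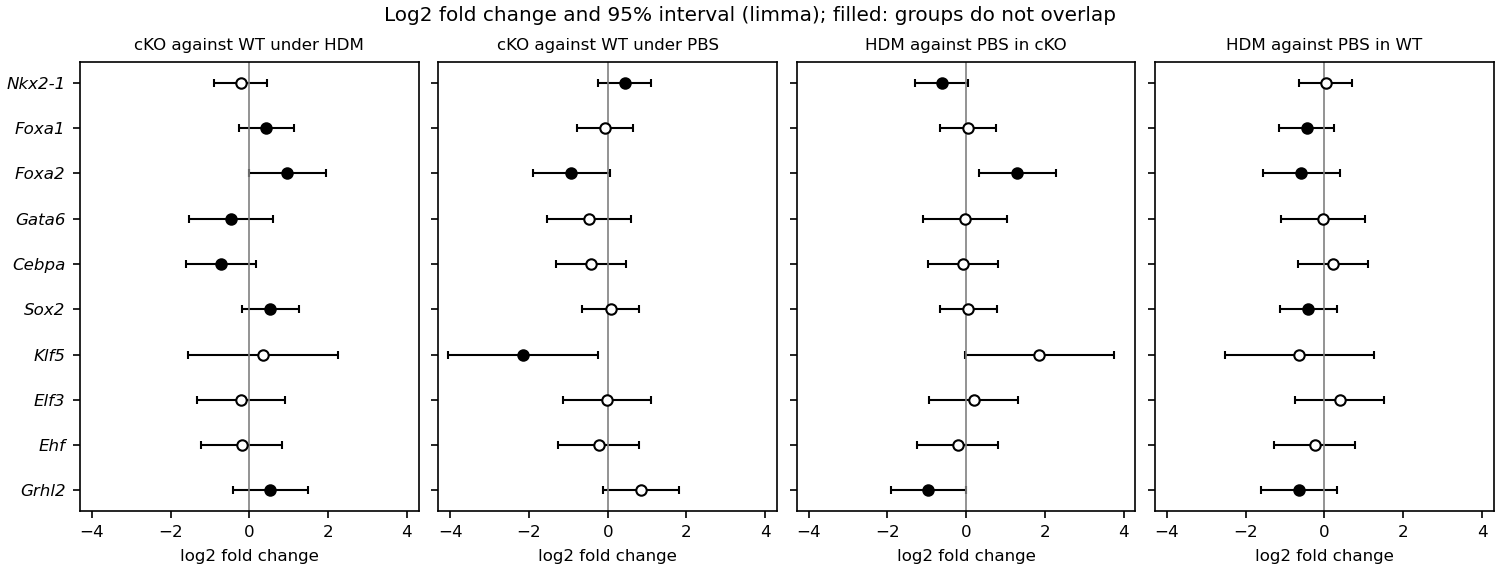
Log2 fold change of normalized count + 1 for each factor in 4 comparisons (points) with the 95% interval from limma (bars), filled where the groups of 2 libraries do not overlap. The intervals of 38 of the 40 values include 0, and the exceptions are Foxa2 for HDM against PBS in cKO, at 1.30, and Klf5 for cKO against WT under PBS, at -2.15.

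The last comparison set the response to HDM in cKO against that in WT, as the interaction of genotype and treatment. No factor passed, and 0.0266% of all tested genes did, while 1 factor, Foxa2, had an unadjusted p under 0.05, beside 7.77% of all tested genes. The interaction of Foxa2 was 1.89 ± 0.65 on the log2 scale, with a 95% interval of 0.50 to 3.28, an unadjusted p of 0.0110 and a limma adjusted p of 0.532. Its libraries ran in opposite directions in the 2 genotypes, a pattern that was not counted over all tested genes. Both cKO HDM libraries lay above both cKO PBS libraries, and both WT HDM libraries lay below both WT PBS libraries. The interaction of Foxa2 lay between 1.28 and 2.50 when each library was left out in turn, and between 1.74 and 1.93 under the other alternatives. Among the latter, other filters, no variance trend, library weights and a replicate block cannot change the value, so that range is a weak check. Klf5 was at 2.50 ± 1.26 (limma adjusted p = 0.670), and it passed at 4.38 without cKO PBS replicate 1 (limma adjusted p = 0.0432), in a fit that called 19 of all tested genes in place of 2. The lowest member was Nkx2-1 at -0.65 ± 0.45. The median over the 10 factors was 0.02, with 6 above and 4 below 0, against 0.16 over all tested genes.

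These libraries bounded the differences only loosely. Of the 40 intervals of 10 factors in 4 comparisons, 7 lay wholly within 2-fold either way. They belonged to Nkx2-1, Foxa1 and Sox2, with 2 each, and to Cebpa, with 1. The standard error ranged from 0.32 for Nkx2-1 to 0.89 for Klf5 on the log2 scale. In data simulated at the depth of the HDM libraries, the test of cKO against WT found 6% of the changes of 2-fold, 30% of those of 4-fold and 62% of those of 8-fold, in a run of 7117 genes. The changed genes were drawn at random from all genes with a mean of at least 10. A mean of 50 was reached by 1803 of 7512 genes but by 8 of the 10 factors. These shares therefore hold for tested genes in general and do not give the recovery for a factor.

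The factors were set beside 3 lists of related genes. Of 34 other epithelial transcription factors, 24 passed the minimum, and 1 fell in cKO against WT under HDM, with 0 rises, beside 0.572% of all tested genes that passed in either direction. That gene was Etv5, an ETS factor of alveolar type 2 cells and 1 of the 12 alveolar type 2 markers, with 7.98 and 15.8 normalized counts in cKO HDM, against 128 and 89.0 in WT HDM (log2 fold change -3.13 ± 0.57, limma adjusted p = 0.0176). The cKO HDM libraries were lower than the 6 others for Etv5. Its call was lost when any of the 4 HDM libraries was left out, with values between -3.58 and -2.68. It was also lost without a variance trend and without the filter on low values. Foxj1, the regulator of ciliated cells and 1 of the 12 ciliated cell markers, was named after its values were seen. It had 810 and 682 normalized counts in cKO HDM, against 380 and 395 in WT HDM (0.94 ± 0.23, limma adjusted p = 0.0952), and it passed as higher in cKO HDM under 8 of 20 alternatives, at 0.93 to 1.05. These were a pseudocount of 5, a minimum mean of 50, quantile normalization, library weights, only the groups compared, either cKO PBS library left out, and DESeq2. The list of 24 had a median of 0.10, with 14 above and 10 below 0. In the other comparisons 0 of 24 passed with limma, edgeR or DESeq2, and 2 to 5 had an unadjusted limma p under 0.05, beside 6.96% to 8.93% of all tested genes.

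Target genes of NKX2-1 and the FOXA factors include surfactant, secretoglobin and alveolar lipid genes, and all 16 that were listed passed the minimum. In cKO against WT under HDM, 5 of 16 fell and 0 rose, beside 0.572% of all tested genes that passed in either direction, with 14 below 0 and a median of -0.94, where the 10 factors had a median of 0.08. Slc34a2, a phosphate transporter of alveolar type 2 cells, had 496 and 499 normalized counts in cKO HDM, against 1924 and 2546 in WT HDM (-2.15 ± 0.28, limma adjusted p = 0.00207). Lpcat1, an enzyme of surfactant lipid synthesis, had 37.7 and 91.4 in cKO HDM, against 383 and 357 in WT HDM (-2.63 ± 0.36, limma adjusted p = 0.00284). The surfactant gene Sftpb had 486 and 589 in cKO HDM, against 1069 and 1734 in WT HDM (-1.35 ± 0.23, limma adjusted p = 0.0145). For all 3 genes the cKO HDM libraries lay below the WT HDM libraries. The lysosomal membrane gene Lamp3 (-2.34 ± 0.39, limma adjusted p = 0.0144) was lower as well. So was the surfactant gene Sftpc (-1.34 ± 0.28, limma adjusted p = 0.0473), which was named after its values were seen. Lamp3 had 115 and 73.9 in cKO HDM and 450 and 498 in WT HDM, with 50.4 to 183 in the PBS libraries. Sftpc had 856 and 801 in cKO HDM and 1519 and 2878 in WT HDM, with 765 to 1289 in the PBS libraries. Both genes in cKO HDM thus lay within their PBS range, whereas Sftpb lay below its PBS values of 766 to 909. Of the 16 genes, 8 are also among the 12 alveolar type 2 markers, of which 8 fell in the same comparison, and 4 are among the 10 club cell markers. The count of 5 became 0 without WT HDM replicate 2, 2 without either cKO HDM library and 4 to 7 with any other library left out. Slc34a2 and Lpcat1 lost their calls without WT HDM replicate 2, at -1.95 and -2.68, and so did Sftpb at -0.997 and Sftpc at -0.87. Sftpb was also lost without either cKO HDM library (-1.21 and -1.48), Lamp3 without any of the 4 HDM libraries (-2.66 to -2.03), and Sftpc without either cKO HDM library or either WT PBS library (-1.38 to -1.29). Without a variance trend 0 of the 5 passed, without the filter on low values Sftpb, Sftpc and Lamp3 did not, and Sftpc did not with a pseudocount of 0.2. Quantile normalization added 1 rise in this list, of the club cell gene Cyp2f2, at 0.69.

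In HDM against PBS in WT, 3 of these 16 target genes rose and 0 fell, beside 0.519% of all tested genes that passed in either direction, with a median of 0.66. Sftpd, a surfactant collectin, had 718 and 935 normalized counts after HDM in WT, against 266 and 300.1 after PBS (1.53 ± 0.24, limma adjusted p = 0.00515). Slc34a2 rose by 1.77 ± 0.28 (limma adjusted p = 0.00515) and Sftpa1, another surfactant collectin, by 1.20 ± 0.22 (limma adjusted p = 0.0224). The WT HDM libraries lay above the WT PBS libraries in each case. Without WT HDM replicate 2 or without WT PBS replicate 1 the count was 0, and without WT PBS replicate 2 it was 1, while it lay between 2 and 5 with any other library left out. Sftpd was at 1.34 without WT HDM replicate 2 and at 1.45 and 1.62 without either WT PBS library, and it then did not pass. Slc34a2 was at 1.57 without WT HDM replicate 2 and at 1.40 without WT PBS replicate 1, and Sftpa1 at 0.90 to 1.41 without WT HDM replicate 2 or either WT PBS library. Sftpa1 was also lost without either cKO HDM library, with a pseudocount of 0.2 and without the filter on low values. Slc34a2 was lost without that filter too, and all 3 genes without a variance trend. Some secretory targets passed as lower after HDM in WT under other alternatives. These were Cyp2f2 (-0.93) and Scgb1a1 (-0.69) with quantile normalization, and Cyp2f2 (-0.68) and Scgb3a1 (-1.01) with only the groups compared. In cKO, 0 of 16 passed HDM against PBS, with a median of -0.49, and 0 of 16 passed in cKO against WT under PBS, with a median of 0.22. In the interaction all 16 values were below 0, with a median of -1.13, and 0 passed. In these 3 comparisons 7, 5 and 11 of the 16 had an unadjusted limma p under 0.05, beside 7.77%, 6.96% and 7.77% of all tested genes. There edgeR called 0 in each, and DESeq2 called 2, 0 and 3.

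Known targets of GRHL2 and ELF3, among them the adhesion gene Cdh1, the claudins and the simple keratins, gave 0 of 16 calls in each of the 5 comparisons with limma and with edgeR. With limma, 1 to 5 of them had an unadjusted p under 0.05, beside 6.96% to 9.6% of all tested genes, and DESeq2 called 1, in HDM against PBS in WT. In cKO against WT under HDM, 14 of 16 were above 0, with a median of 0.45, and in HDM against PBS in WT, 13 were below 0, with a median of -0.39. The keratin Krt8 had the smallest p of the list in the first of these, with 247 and 203 normalized counts in cKO HDM, against 139 and 135 in WT HDM (0.71 ± 0.27, limma adjusted p = 0.382). The protease St14 came next, at 0.99 ± 0.44 (limma adjusted p = 0.487). The cKO HDM libraries lay above the WT HDM libraries for both genes, and neither passed. With only the groups compared, Lcn2 of this list passed as lower in cKO HDM than in WT HDM (-2.05, limma adjusted p = 0.0258). It also passed there as higher after HDM in WT (2.61, limma adjusted p = 0.00158). Calls in this list changed as well when either cKO PBS library was left out. Without cKO PBS replicate 2, Lcn2 was at 4.26 and Esrp2 at 3.16 for HDM against PBS in cKO. Lcn2 was then at -3.70 for cKO against WT under PBS.

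**Figure D4:**
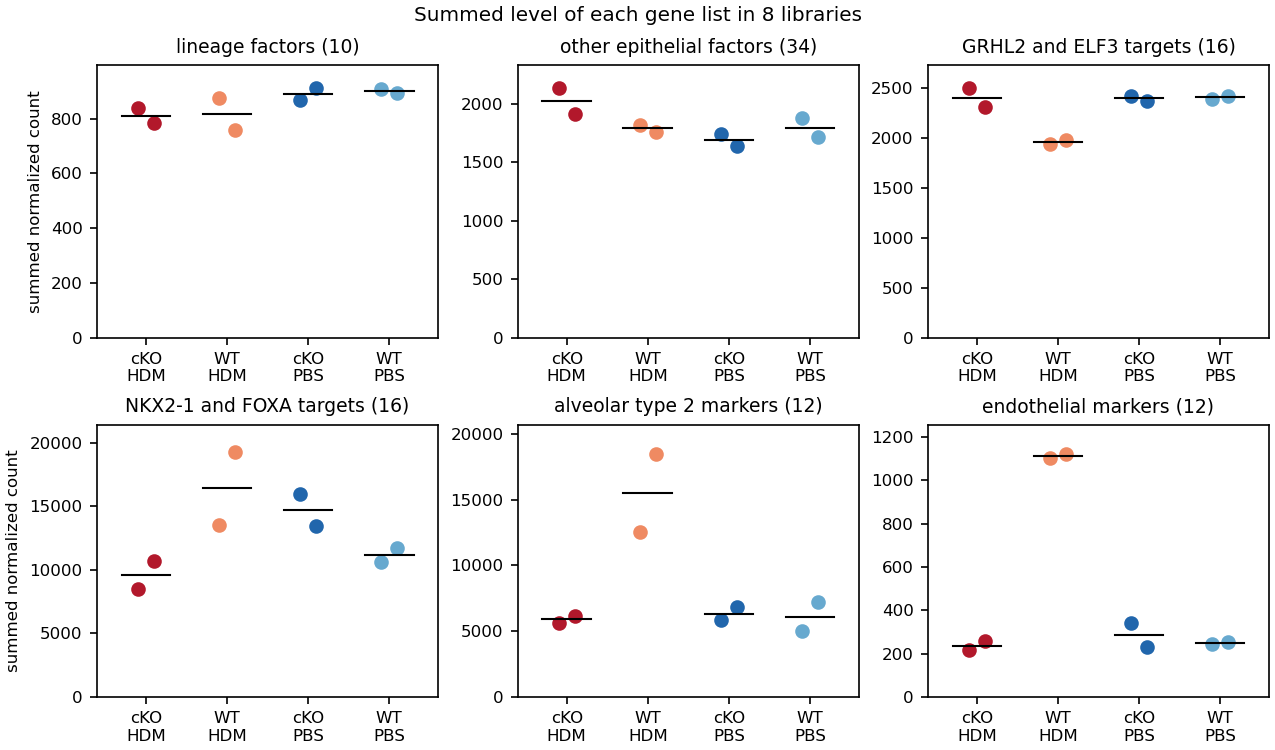
Summed normalized count of 6 gene lists in every library (points; number of listed genes in brackets) with a line at the group mean, each panel on its own axis from 0. The sum of the 10 lineage factors ranges 1.20-fold over the 8 libraries. That of the NKX2-1 and FOXA targets ranges 2.28-fold. That of the alveolar type 2 markers ranges 3.71-fold, with its highest values both in WT HDM.

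Over all 8 libraries the sums of the lists differed in spread. The highest library was 1.20 times the lowest for the 10 factors, 1.30 times for the 34 other factors and 1.29 times for the GRHL2 and ELF3 targets. It was 2.28 times the lowest for the NKX2-1 and FOXA targets. A sum over genes of unequal level follows its most abundant members. These include Cebpa among the 10 factors, and Scgb1a1, Cyp2f2 and Sftpa1 in the target list.

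The genes most like each factor across the 8 libraries were found by the root mean square difference of log2 profiles centred on their own mean. The candidates were 1770 other genes that averaged 50 normalized counts or more, without predicted, clone-named and small RNA genes. Gata6 and Klf5 were below that mean and were not compared. Nearest to Nkx2-1 were Eef1g, Acss1 and Atl3, at 0.11 to 0.12, where the median over all candidates was 0.47. Nearest to Foxa1 were Rpgrip1l, Tcf25 and Adipor2, at 0.13 to 0.14. For Foxa2 they were Ccdc157, Drc7 and Vapb, at 0.28 to 0.30, where the median over all candidates was 0.72. For Sox2 they were Cnp, Cldn3 and Rfk, all at 0.17. For Elf3 they were Cebpb, Ralgapb and Kctd10, at 0.24 to 0.29, and for Ehf Eif3c, Akap13 and Apc, at 0.22 to 0.26. For Grhl2 they were Ndufc2, Ppp1r16a and Nav2, at 0.22 to 0.30. None of the 8 factors had another member of the 10 among its 3 nearest genes.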

How the data were processed

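RNA-seq of sorted mouse airway epithelial cells was analysed from 1 deposited table of 25124 genes and 8 libraries in 4 groups of 2, grouped by the genotype and treatment in the labels. The deposited signal values are read counts normalized by the authors. Per the submitters' processing notes, the tools were HOMER and DESeq2 and the build was mm10. Aligner, annotation and use of strand in counting: not given in the sources used here, so reads of overlapping genes cannot be assigned with certainty. Such genes lie on the opposite strand of Nkx2-1, Gata6, Cebpa, Elf3 and Grhl2 and on the same strand of Sox2.

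Dividing by the value of 1 read gave whole reads for 100% of the values within 0.01 reads, and size factors recomputed by the median of ratios matched the deposited scaling. Values were tested as log2(value + 1), which understates the change of low genes, for the 7512 genes with a mean of at least 10. A model with 1 mean per group over all 8 libraries was fitted with limma 3.58.1 in R 4.3.3 (eBayes with a variance trend), with two-sided tests and Benjamini-Hochberg adjustment over all tested genes at 0.05. The 5 comparisons were cKO against WT under HDM and PBS, HDM against PBS in cKO and WT, and the interaction. Exact Poisson intervals and floors of 3 reads cover counting error only. Exon lengths and positions come from GENCODE M21 and upstream sequences from RefSeq GRCm38.p6. Motif matches were counted on both strands.

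All 10 members were named, with the genes of 3 related lists that passed (the 4 of smallest p where more did) or, where none passed in a list, the 2 of smallest p in cKO against WT under HDM. The genes nearest to Cebpa in profile are not reported here. The members and the lists were chosen with earlier results of these data known. Alternatives were other pseudocounts and filters, quantile normalization, no variance trend, library weights, a replicate block, only the groups compared, each library left out, and edgeR 4.0.16 and DESeq2 1.42.0 on the recovered reads. The test was tried on simulated data for cKO against WT under HDM, where 6 of 95 calls were false.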

Additional observations from a re-analysis of the deposited data

Results flagged for a closer look

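The response of Foxa2 to HDM ran in opposite directions in the 2 genotypes. Foxa2 had 79.8 and 85.5 normalized counts in cKO HDM, against 21.1 and 50.8 in cKO PBS, and in WT it had 48.3 and 36.1 after HDM, against 72.0 and 55.5 after PBS. Every cKO library under HDM was above every cKO library under PBS, and every WT library under HDM was below every WT library under PBS. Foxa2 was flagged for this pattern, and the share of all tested genes that show it was not counted. HDM and PBS groups did not overlap, in either direction, for 35.6% of all tested genes in cKO and 42% in WT. The lower cKO PBS value rested on 13 reads. The difference of the responses was 1.89 ± 0.65 on the log2 scale (95% interval 0.50 to 3.28), and it did not pass the test across all genes (limma adjusted p = 0.532, unadjusted p = 0.0110, rank 155 of 7512 genes by p).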

How the results depend on the processing

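The number of factors that passed stayed at 0 in each comparison under the other alternatives run. With each library left out in turn it was 0 to 2 for HDM against PBS in cKO, 0 to 1 for cKO against WT under PBS and 0 to 1 for the interaction, and 0 for the other comparisons. Every such call came from leaving out a cKO PBS library. Among the factor values discussed singly, those that changed sign with a library left out were Elf3 for HDM against PBS in WT (-0.37 to 1.13), Klf5 for HDM against PBS in cKO (-0.021 to 3.75) and Cebpa for cKO against WT under PBS (-1.33 to 0.46). The cause was not tested. Among the other factor values, 43 of 216 changed sign with a library left out and 10 of 311 under the other alternatives. All of these were within 0.47 of 0 on the log2 scale as reported. Many of the trials could not change a value, so these shares understate how readily signs changed. A library of a group not compared does not enter a fold change between 2 groups. Other filters, no variance trend, library weights and a replicate block also keep the fold change. The number of all tested genes that passed moved with the setting. For cKO against WT under HDM it was 43, with 0 to 142 under the other alternatives and 3 to 117 with a library left out. For HDM against PBS in WT it was 39, with 1 to 190 and 3 to 110. For HDM against PBS in cKO it was 4, with 0 to 28 and 0 to 320, and for the interaction 2, with 0 to 27 and 0 to 115. For cKO against WT under PBS it was 0, with 0 to 315 with a library left out. Under the other alternatives, the NKX2-1 and FOXA targets that passed in either direction numbered 0 to 9 of 16 for cKO against WT under HDM. For HDM against PBS in WT they numbered 0 to 10. The 10 were 8 rises and 2 falls, with only the groups compared. Same-numbered libraries did not deviate together (correlations of -0.02 to 0.02), and the labels do not state whether the numbers pair them. With a replicate block 0 factors passed in each comparison, and 48, 43, 5, 0 and 3 of all tested genes passed, against 43, 39, 4, 0 and 2 without it. The fewest reads behind a value of a factor were 2, for Klf5 in cKO PBS replicate 2.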
